A study of Mus musculus with 4 samples.

Results

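The insulin-like growth factor (IGF) genes described here are 8 mouse genes, the growth factor gene Igf1, its receptor gene Igf1r and the binding protein genes Igfbp2 to Igfbp7. They were taken by symbol from the probe sets that the array annotation gives to a single gene. Each of the 8 had 1 such probe set, out of 23521 single-symbol probe sets that stand for 22180 genes. Of the 8 genes, 7 were measured in at least 1 comparison, and Igfbp5 was not.

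IGF1 is a secreted growth factor that binds the receptor tyrosine kinase IGF1R, which passes the signal through receptor substrates to PI3K, AKT and mTOR. IGF binding proteins hold the factors in the fluid around cells, and proteases release the factors by cutting the binding proteins. In the embryo this system drives growth, and fibroblasts in culture secrete several of the binding proteins.

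The study measured total RNA on 4 arrays, 1 for each culture, so no condition had a replicate. The 10 day and the 38 h sample were stable lines of induced pluripotent stem cells (iPSC), clones obtained from fibroblasts with Sumo2 knockdown, and the labels do not say what either time counts. The other samples were bulk cultures of reprogrammable mouse embryonic fibroblasts at day 6 of doxycycline, which switches on reprogramming factors in these cells, with a knockdown of Sumo2 or, as the control, of Firefly, a luciferase gene of an insect. All 4 samples were labelled as strain Black6-129X1/SvJ, as a pool of male and female, as grown in embryonic stem cell medium with serum, and as given ascorbic acid and doxycycline. The labels name neither the construct of the knockdown nor any feeder cells.

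Sumo2, the targeted gene, had a log2 expression of 10.56 in the culture labelled Sumo2 knockdown, against 10.65 in the Firefly knockdown culture. The transcript therefore does not show the knockdown, and every direction between the day 6 cultures rests on the label. All values are log2 expression, and a difference of 1 is 2-fold. A measuring floor was set at each array's median over single-symbol probe sets, 6.64 to 6.67, and a gene is called measured where at least 1 of the arrays compared reached the floor. Of 10 pluripotency markers, 9 reached the floor on each iPSC array, all but Dppa5a, against 5 in the culture labelled Sumo2 knockdown and 3 in the Firefly knockdown culture. Of 11 fibroblast markers, 8 to 9 reached it on the iPSC arrays and 8 to 9 on the day 6 arrays, and Lum did so on no array. On the iPSC and day 6 arrays, 2 and 1 to 2 of 5 macrophage markers, 2 and 1 to 2 of 5 endothelial markers, 1 to 2 and 3 to 4 of 5 muscle markers, and 0 to 1 and 2 of 4 hepatocyte markers reached it. Ptprc, Adgre1 and Csf1r of macrophages, Kdr and Emcn of endothelium, Actc1 of muscle, and Alb and Afp of hepatocytes were under the floor on all 4 arrays. Every other marker of these cell types reached it on at least 1 array, and Cd68, Tek and Des did so on all 4. Cd68 read 10.02 and 9.47 and Pecam1 10.18 and 9.54 in the 10 day and 38 h lines. Tek read 10.50 on both day 6 arrays.

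Among the 8 genes, the binding protein genes Igfbp2 and Igfbp3 showed the widest differences between iPSC and day 6 cultures. Igfbp2 was far higher and Igfbp3 far lower in both iPSC lines, by about the same ratio. Igfbp4 also rose, and Igf1r and Igfbp6 fell, each by more than 2-fold. Igfbp7 was bright on every array and did not pass the test. Igf1 and Igfbp5 lay at or near background. The plot of expression by array shows all 8.

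**Figure D1:**
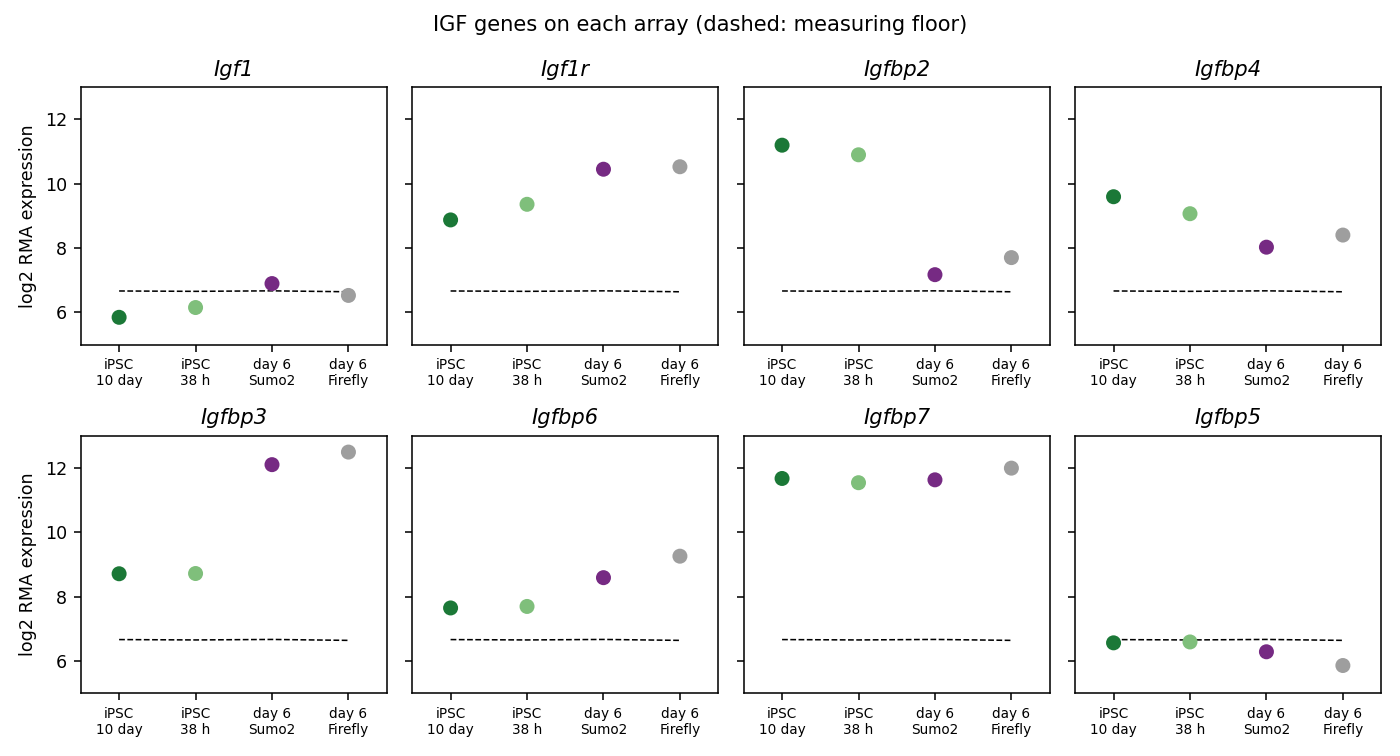
Log2 RMA expression of the 8 IGF genes (vertical axis) on each of the 4 arrays (horizontal axis), 1 point per array, with each array's measuring floor as a dashed line. Igfbp2 and Igfbp4 are higher on both iPSC arrays, Igfbp3, Igfbp6 and Igf1r are lower there, Igfbp7 overlaps between the pairs, and Igf1 and Igfbp5 lie around or under the floor.

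The sequences before the start sites of Igfbp2 and Igfbp3 are shown because these genes had the largest rise and the largest fall among the 8. They are the 250 bases before the outermost annotated start, 5′ to 3′ on the gene's strand, from RefSeq on GRCm38.p6. Capitals mark matches on either strand to the GC box (GGGCGG), the TATA box (TATAAA), the CCAAT box (CCAAT) and the E-box (CACGTG). No matches overlapped each other in the 8 promoters.
Igfbp2 (chr1:72824230-72824479, plus strand): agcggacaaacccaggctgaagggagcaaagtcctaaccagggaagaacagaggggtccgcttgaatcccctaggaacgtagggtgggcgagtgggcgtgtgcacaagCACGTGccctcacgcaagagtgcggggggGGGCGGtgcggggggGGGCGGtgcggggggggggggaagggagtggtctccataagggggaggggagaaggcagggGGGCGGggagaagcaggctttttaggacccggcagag
Igfbp3 (chr11:7213924-7214173, minus strand): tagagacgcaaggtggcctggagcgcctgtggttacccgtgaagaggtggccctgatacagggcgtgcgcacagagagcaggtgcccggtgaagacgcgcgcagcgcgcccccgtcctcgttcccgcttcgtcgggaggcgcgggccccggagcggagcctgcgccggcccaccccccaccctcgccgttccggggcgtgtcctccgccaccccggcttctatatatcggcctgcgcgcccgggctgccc
Igfbp2 held 3 GC boxes and 1 E-box in this window, and Igfbp3 held none of the 4 motifs. The Igfbp3 window was the richer in CpG, with 32 CpG and 73.2% G or C, against 14 CpG and 67.2% for Igfbp2. Over 32851 windows of this length in the RefSeq table the median was 6 CpG (quartiles 2 and 16) and 52.4% G or C. Among the 8 genes the CpG count was highest for Igf1r (42) and lowest for Igf1 (5), with 22 for Igfbp4 and 7 for Igfbp6, so the genes that rose lie between those that fell. A GC box occurred in 3 of the 8 (Igf1r, Igfbp2, Igfbp7), against 32.7% of all windows, and a TATA box in 2 (Igfbp4, Igfbp6), against 12.4%. A CCAAT box occurred in 2 (Igf1, Igfbp6), against 33.8%, and an E-box in 1 (Igfbp2), against 6.02%. These matches describe letters only.

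The first comparison set both iPSC lines against both day 6 cultures and asked how the IGF genes differ between stable pluripotent lines and cultures still in reprogramming. It used limma over 12735 measured genes, with each pair taken as 2 samples. The contrast of the day 6 knockdowns and that of the 2 lines are therefore part of the spread. Both lines came from fibroblasts with Sumo2 knockdown, and the Firefly knockdown culture did not have it. The contrast of iPSC with day 6 thus cannot be told apart from that of clonal lines with bulk cultures, nor wholly from knockdown history. At an adjusted p under 0.05, 2 of the 7 measured IGF genes rose and 3 fell, where 29.0% of all measured genes rose and 17.8% fell. All 5 also passed 2-fold, which 14.3% of all genes did upwards and 9.12% downwards. The pairs of arrays did not overlap for 6 of the 7 genes, all but Igfbp7. Such separation was common here, since 46.8% of all genes stood higher on both iPSC arrays than on both day 6 arrays and 32.7% lower. For Igf1 it rests on values under the floor, which only the culture labelled Sumo2 knockdown reached.

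For the ligand, Igf1 had a log2 expression of 5.85 in the 10 day line and 6.15 in the 38 h line, against 6.90 in the culture labelled Sumo2 knockdown and 6.53 in the Firefly knockdown culture. Only the culture labelled Sumo2 knockdown reached the floor. The difference of -0.71 (SE 0.24) did not pass (limma adjusted p = 0.0508), and counted from the floor it was -0.11, so it rests on values within background. Without a filter on low values the limma adjusted p was 0.0383.

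The receptor gene Igf1r read 8.88 in the 10 day line and 9.36 in the 38 h line, against 10.45 in the culture labelled Sumo2 knockdown and 10.53 in the Firefly knockdown culture. Both lines were lower than both cultures, and the day 6 arrays lay close together. Igf1r fell 2.59-fold in iPSC (log2 difference -1.37, SE 0.20, limma adjusted p = 0.00285). A difference at least as far downwards was shown by 5.57% of measured genes.

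Igfbp2 encodes a binding protein that also carries an integrin recognition sequence. It read 11.20 in the 10 day line and 10.90 in the 38 h line, against 7.18 in the culture labelled Sumo2 knockdown and 7.71 in the Firefly knockdown culture. Both lines were high, and both cultures stood about 1 unit or less above the floor. Igfbp2 rose 12.2-fold (log2 difference 3.61, SE 0.23, limma adjusted p = 0.000255). Among the 4 differences between an iPSC and a day 6 array, the smallest was 3.20. Only 0.534% of measured genes stood as far or further upwards.

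Igfbp3, the main carrier of IGF in blood and a known p53 target, went the other way. It read 8.71 in the 10 day line and 8.72 in the 38 h line, against 12.11 in the culture labelled Sumo2 knockdown and 12.50 in the Firefly knockdown culture. The lines were nearly equal to each other and remained above the floor. Igfbp3 fell 12.0-fold (log2 difference -3.58, SE 0.17, limma adjusted p = 0.000129), with differences of -3.78 to -3.38 over the 4 pairs. A fall as large was shown by 0.314% of measured genes.

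Igfbp4, which holds IGF away from its receptor until a protease cuts it, read 9.60 in the 10 day line and 9.07 in the 38 h line, against 8.03 in the culture labelled Sumo2 knockdown and 8.41 in the Firefly knockdown culture. The order of the arrays was that of Igfbp2, over a smaller range. Igfbp4 rose 2.17-fold (log2 difference 1.12, SE 0.24, limma adjusted p = 0.0109). Without the array of the culture labelled Sumo2 knockdown the difference was 0.93 and did not pass (limma adjusted p = 0.0666).

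Igfbp6, which prefers IGF2 over IGF1, read 7.65 in the 10 day line and 7.70 in the 38 h line, against 8.59 in the culture labelled Sumo2 knockdown and 9.26 in the Firefly knockdown culture. Both lines were low and nearly equal, while the day 6 cultures stood apart from each other. Igfbp6 fell 2.38-fold (log2 difference -1.25, SE 0.24, limma adjusted p = 0.00772).

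Igfbp7, a relative that binds IGF weakly, read 11.68 in the 10 day line and 11.54 in the 38 h line, against 11.63 in the culture labelled Sumo2 knockdown and 12.00 in the Firefly knockdown culture. The 10 day line lay between the cultures, so the pairs overlapped (log2 difference -0.21, SE 0.14, limma adjusted p = 0.263). Igfbp5, a binding protein that also attaches to matrix, lay under the floor on all 4 arrays, at 6.57 and 6.59 in the 10 day and 38 h lines, against 6.29 and 5.86 in the Sumo2 and Firefly knockdown cultures, and was not tested.

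**Figure D2:**
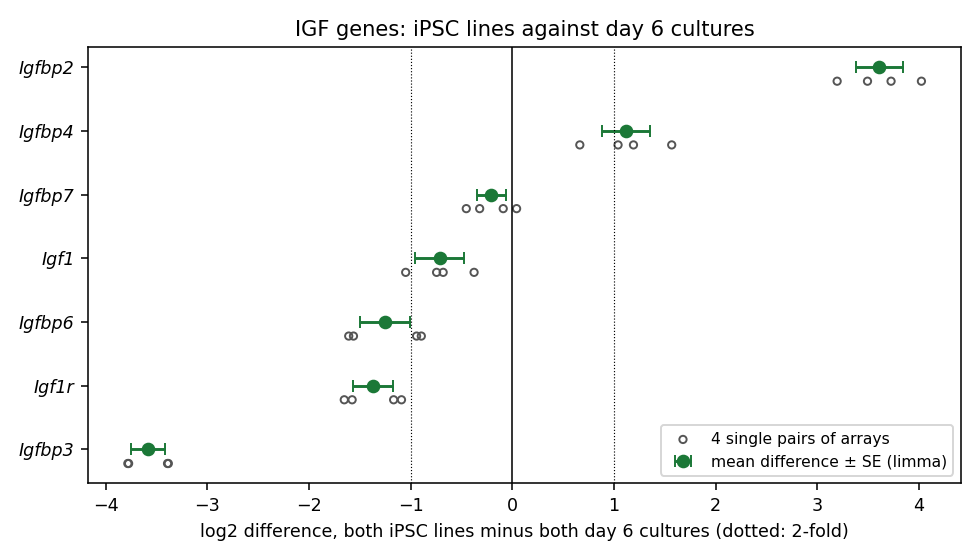
Log2 difference between both iPSC lines and both day 6 cultures (horizontal axis) for the 7 measured IGF genes, as the mean difference with the limma SE (filled) and as the 4 differences between single arrays (open). Igfbp2 at 3.61 and Igfbp3 at -3.58 lie furthest out, and the open points of Igfbp7 fall on both sides of 0.

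Some fibroblast markers fell as well. Of 10 measured fibroblast markers, 4 fell (Thy1, Prrx1, Mmp2 and Col1a2), 1 rose (Postn) and 5 were not called by limma adjusted p under 0.05, where 17.8% of all measured genes fell and 29.0% rose. Their median log2 difference was -0.54, against 0.15 over all measured genes. Their summed linear level over 11 markers was 5084 to 6554 on the iPSC arrays and 10343 to 13972 on the day 6 arrays. Without Thy1 and Prrx1, left out after their values were seen, the sums overlapped, at 4121 and 5339 in the 10 day and 38 h lines, against 4887 and 7362 in the Sumo2 and Firefly knockdown cultures. The part of this in the fall of Igfbp3, Igfbp6 and Igf1r was not tested, and in bulk samples fewer cells of a type and less RNA per cell cannot be told apart. All 9 measured pluripotency markers rose (summed level over 10 markers 27423 to 29835 on the iPSC arrays and 975 to 3380 on the day 6 arrays), and the part of this in the rise of Igfbp2 and Igfbp4 was not tested. Of these markers, Sox2, Zfp42, Dppa4 and Tcl1 lay under the floor on both day 6 arrays, and so did the fibroblast marker Postn. They counted as measured only through the iPSC arrays, so their rise follows in part from the filter.

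The second comparison set the culture labelled Sumo2 knockdown against the Firefly knockdown culture and asked what the knockdown did at day 6. It rests on 1 array each, so sizes are given with no test. None of the 7 measured IGF genes differed 2-fold, which 0.945% of 11740 measured genes did upwards and 0.230% downwards. All 5 measured genes among Igfbp2 to Igfbp7 were lower in the culture labelled Sumo2 knockdown, including Igfbp2 and Igfbp4, the genes that stood higher in iPSC.

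Igfbp6 differed most, at 8.59 against 9.26 (log2 difference -0.67), a step that 1.75% of measured genes matched or passed downwards. Igfbp2 followed at 7.18 against 7.71 (-0.53, matched or passed by 3.96%). Igfbp3 (-0.39), Igfbp4 (-0.38) and Igfbp7 (-0.36) took nearly equal steps, each matched or passed downwards by 8.29% to 9.52% of genes. Igf1r was almost level (-0.08), and Igf1 was higher by 0.37 as read and 0.26 counted from the floor. The median over the 6 measured genes of the binding protein list, with the IGFBP-like gene Igfbpl1 at -0.14, was -0.38, against 0.02 over all measured genes, and 0 of 6 were higher where 53.7% of all genes were. Of 9 measured fibroblast markers 0 were higher, with a median of -0.56 as read, and the part of this in the lower binding protein values was not tested. Among them Twist2 (-0.82 as read and -0.01 from the floor) lay under the floor in the culture labelled Sumo2 knockdown. It counted as measured only through the Firefly knockdown culture. The 5 measured pluripotency markers were all higher, with a median of 2.33 as read and 2.28 from the floor. Tdgf1 (2.28 from the floor) and Esrrb (0.39) lay under the floor in the Firefly knockdown culture and counted as measured only through the culture labelled Sumo2 knockdown.

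The third comparison set the 10 day line against the 38 h line, again with 1 array each and no test. None of the 6 IGF genes measured there differed 2-fold, which 2.19% of 11754 measured genes did upwards and 1.03% downwards. Igfbp4 was higher in the 10 day line, 9.60 against 9.07 (log2 difference 0.53, matched or passed upwards by 7.53% of genes), and so was Igfbp2, 11.20 against 10.90 (0.30, 15.9%). Igf1r was lower, 8.88 against 9.36 (-0.49, matched or passed downwards by 6.09%). Igfbp7 (0.13), Igfbp6 (-0.05) and Igfbp3 (-0.01) were close to level. Primitive endoderm markers also differed here, since 0 of 7 measured were higher in the 10 day line and 3 were at least 2-fold lower. Over all measured genes 47.4% were higher there. The median of the 7, -0.97 as read, is the value of Sox7, which is -0.50 from the floor. Sox7 lay under the floor in the 10 day line and counted as measured only through the 38 h line. The part of the endoderm difference in the IGF genes was not tested. Of 9 measured fibroblast markers, 1 was higher in the 10 day line and 1 at least 2-fold lower (Dcn, -1.66 as read and -0.15 from the floor), with a median of -0.34, and the part of this in the lower Igf1r was not tested either.

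**Figure D3:**
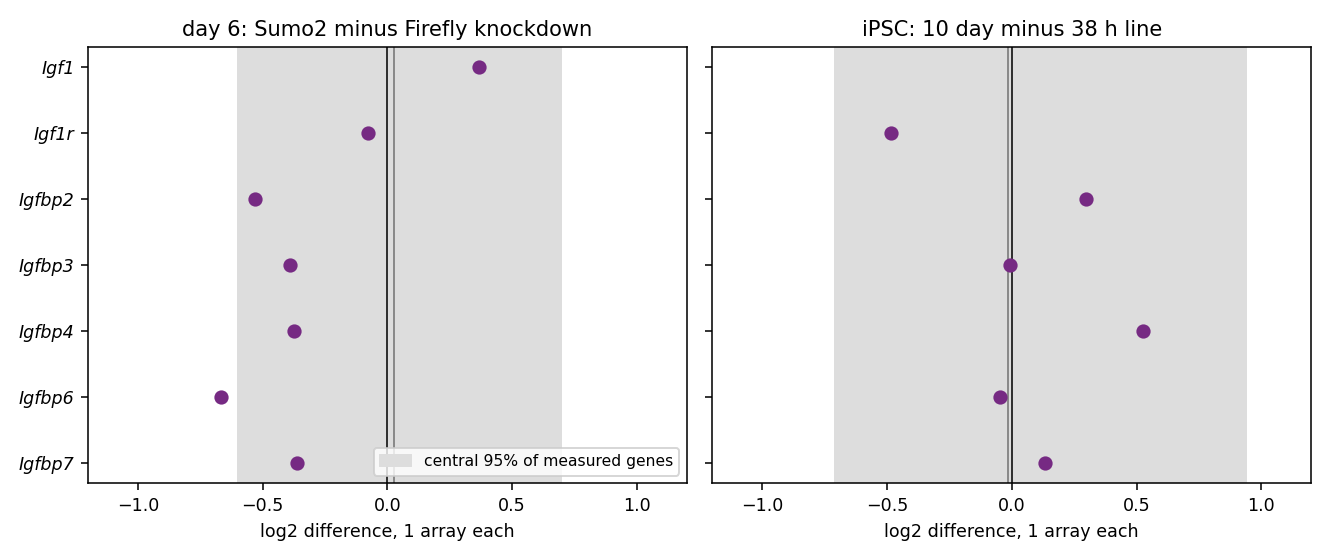
Log2 difference of the IGF genes (horizontal axis) between the culture labelled Sumo2 knockdown and the Firefly knockdown culture (left) and between the 10 day and the 38 h iPSC line (right), 1 array each, with the central 95% of all measured genes shaded and their median as a grey line. The binding protein genes lie left of 0 in the day 6 panel, where Igfbp6 at -0.67 is outside the shaded range, and Igf1 has no point on the right because it lay under the floor in both lines.

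The order of the arrays differed among the genes. Igfbp2 and Igfbp4 ran from the 10 day line down through the 38 h line and the Firefly knockdown culture to the culture labelled Sumo2 knockdown. Igf1r, Igfbp3 and Igfbp6 climbed from the 10 day line through the 38 h line and the culture labelled Sumo2 knockdown to the Firefly knockdown culture. With 1 array each, no pair of neighbouring arrays within the lines or within the day 6 cultures can be called different. After each gene was centred on its own mean, the profiles of Igf1r and Igfbp6 were the closest among the 8 (root mean square difference 0.27 log2 units over 4 arrays) and those of Igfbp2 and Igfbp3 the furthest apart (3.60).

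Likeness to other genes was measured in the same way over 11794 measured genes. Only 5 genes lay within 0.25 of Igfbp2 and 33 within 0.25 of Igfbp3, against 451 to 1174 for Igf1r, Igfbp4, Igfbp6 and Igf1, whose ranges were smaller. Nearest to Igfbp2 were Platr14 (0.09), the potassium channel gene Kcnk5 (0.16) and the angiogenic factor gene Vegfa (0.20). Nearest to Igfbp3 were Fam174b (0.04), the transcription cofactor gene Eya4 (0.07) and the smooth muscle actin gene Actg2 (0.08). Igf1r was nearest to the receptor tyrosine kinase gene Egfr (0.04), Rtl6 (0.05) and Klhl5 (0.05). Igfbp4 was nearest to Cfap20dc (0.04), Arhgap9 (0.05) and Txlng (0.05), and Igfbp6 to Rab3d (0.04), the glycosyltransferase gene Galnt2 (0.04) and the Wnt receptor gene Fzd1 (0.05). The nearest to Igf1 were Gdf7 (0.02), Prr22 (0.04) and Cdc25b (0.04), a likeness that rests on background values of Igf1. Platr14, Kcnk5 and Arhgap9 lay under the floor on both day 6 arrays, Eya4 on both iPSC arrays, Rtl6, Klhl5 and Gdf7 on the 10 day array and Txlng on the array of the culture labelled Sumo2 knockdown. Their distances and ranks therefore rest in part on background values. With 4 arrays such likeness is a description only.

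The wider pathway was counted from 9 lists, which named 86 genes. Of the 78 that are not among the 8, 71 had a single-symbol probe set and 60 were measured between iPSC and day 6 cultures. Of these 60, 9 rose and 16 fell by limma adjusted p under 0.05 (against 29.0% and 17.8% of all genes), with a median log2 difference of -0.07 against 0.15 over all measured genes. Among the called genes, Stc1 and Pik3cd lay under the floor on both day 6 arrays, and Kazald1 and Irs1 on both iPSC arrays. These genes counted as measured only through the other pair, so their direction, here and in the counts by list, follows in part from the filter. None of 57 differed 2-fold between the day 6 cultures, which 0.945% of all measured genes did upwards and 0.230% downwards. Between the lines none of 57 did, against 2.19% upwards and 1.03% downwards. With shares this small, these counts show nothing particular to the pathway. The plot of the pathway lists shows each measured gene.

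Among ligands, the embryonic growth factor gene Igf2, which is imprinted, read 8.69 in the 10 day line and 8.30 in the 38 h line, against 9.70 in the culture labelled Sumo2 knockdown and 9.80 in the Firefly knockdown culture. Igf2 fell 2.39-fold (log2 difference -1.25, SE 0.19, limma adjusted p = 0.00334). Ins2 lay under the floor on all arrays. Of the other receptors, Igf2r, which clears IGF2 (0.26, SE 0.17, limma adjusted p = 0.247), and the insulin receptor gene Insr (-0.49, SE 0.17, limma adjusted p = 0.0598) did not pass, although after cyclic loess Insr did (-0.68, limma adjusted p = 0.0241). Insrr, Igfbp1 and Igfals, the partner of Igfbp3 in blood, lay under the floor throughout, and Igfbpl1 did not pass (-0.08, limma adjusted p = 0.78).

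Of 7 measured genes for proteases that cut binding proteins and for inhibitors of these, 2 rose and 3 fell, where 29.0% of all measured genes rose and 17.8% fell. The genes that rose were the stanniocalcin genes Stc1 (at least 2.85-fold counted from the floor) and Stc2 (2.87-fold), whose products inhibit the protease encoded by Pappa. Stc2 read 8.80 in the 10 day line and 8.73 in the 38 h line, against 7.15 in the culture labelled Sumo2 knockdown and 7.34 in the Firefly knockdown culture. Pappa itself, the protease that cuts IGFBP4, fell 1.85-fold (log2 difference -0.89, SE 0.26, limma adjusted p = 0.034), a call lost without the 10 day array (limma adjusted p = 0.0747) or the Firefly knockdown array (0.138). Adam9 (-0.77) and the lysosomal protease gene Ctsd (-0.52) fell as well. Of 7 measured genes for other secreted or membrane proteins with an IGFBP domain, 4 fell and 0 rose, against 17.8% and 29.0% of all measured genes. These were Ccn1 (3.40-fold), Crim1 (3.02-fold), Kazald1 (at least 1.65-fold counted from the floor) and Ccn4 (1.97-fold), the last no longer called without the Firefly knockdown array (limma adjusted p = 0.0817).

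Of 16 measured receptor substrates, adaptors and feedback genes, 3 fell, a share near the 17.8% of all measured genes. Another 2 rose, where 29.0% of all measured genes did. The receptor substrate gene Irs1 read 6.53 in the 10 day line and 6.39 in the 38 h line, both under the floor, against 8.78 in the culture labelled Sumo2 knockdown and 9.03 in the Firefly knockdown culture. Irs1 fell at least 4.73-fold counted from the floor (-2.44 log2 units without the floor, with an SE of 0.17 and limma adjusted p = 0.00034). This is the brighter of its 2 probe sets, and the median over both gave a difference of -1.53 (limma adjusted p = 0.00192). Irs2, the other main substrate, fell 4.57-fold (-2.19, SE 0.24, limma adjusted p = 0.00118), at 8.67 and 8.03 in the 10 day and 38 h lines, against 10.43 and 10.65 in the Sumo2 and Firefly knockdown cultures. The imprinted inhibitory adaptor gene Grb10 fell 2.59-fold, though without the Firefly knockdown array it did not pass (limma adjusted p = 0.0553). The docking gene Gab1 rose 1.84-fold and Grb2, which links receptors to RAS, rose 1.43-fold. The call of Grb2 was lost after cyclic loess (limma adjusted p = 0.136) and without any 1 of the 4 arrays (0.0794 to 0.146).

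Of 16 measured PI3K, AKT and FOXO genes, 5 fell and 1 rose, where 17.8% of all measured genes fell and 29.0% rose. Pik3r3, for a regulatory PI3K subunit, fell most (log2 difference -2.81, SE 0.18, limma adjusted p = 0.000267), at 6.81 and 7.14 in the 10 day and 38 h lines, against 9.81 and 9.76 in the Sumo2 and Firefly knockdown cultures. The regulatory subunit gene Pik3r1 fell 2.70-fold, the AKT phosphatase gene Phlpp1 2.24-fold, the kinase gene Akt1 2.10-fold and Gsk3b, a kinase that AKT inhibits, 1.57-fold. The catalytic subunit gene Pik3cd rose by 0.73, or at least 1.19-fold when day 6 values are set to the floor, and was called in 1 of the 4 fits that leave out an array (limma adjusted p 0.0218 to 0.14). Of 9 measured mTOR genes, 3 rose and 0 fell, a share of rises near the 29.0% of all measured genes. These were Rictor (1.84-fold), the mTOR inhibitor gene Tsc1 (1.81-fold) and Eif4ebp1 (1.37-fold), a translation repressor that mTOR inactivates. Without the Firefly knockdown array, Tsc1 (limma adjusted p = 0.0515) and Eif4ebp1 (0.0555) did not pass. Igf2bp3, for a protein that binds IGF2 and other messenger RNAs, rose 1.80-fold (log2 difference 0.85, SE 0.16, limma adjusted p = 0.00744).

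**Figure D4:**
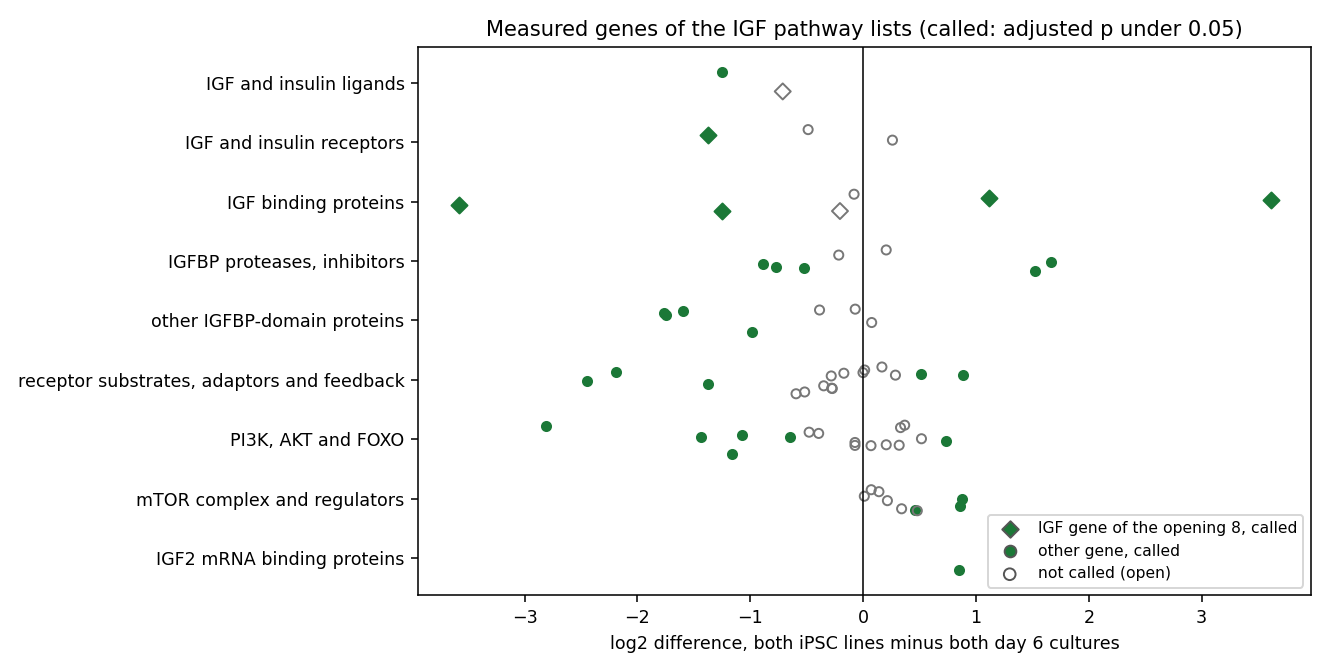
Log2 difference between both iPSC lines and both day 6 cultures (horizontal axis) for every measured gene of the 9 pathway lists (rows, with vertical jitter), with diamonds for the IGF genes of the opening, circles for other genes and filled symbols for a limma adjusted p under 0.05. The lowest points outside the binding proteins are Pik3r3, Irs1 and Irs2.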

How the data were processed

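Each probe set has a deposited log2 value on every array, which the authors computed by RMA, with Expression Console as the software that the submitters' processing notes name; versions and settings are not given in the sources used here, and base 2 was taken as the scale RMA writes. RMA quantile normalization hides changes in total RNA and shrinks dim differences. Of 41345 probe sets, 23521 had 1 gene symbol, 1814 several and 16010 none listed. The probe set with the highest mean stood for a gene. Symbols were checked against GRCm38.p6 by Entrez identifier (23328 found, 0 changed).

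The iPSC and day 6 pairs were compared with limma 3.58.1 in R 4.3.3 (lmFit, eBayes with trend, 2 residual degrees of freedom, Benjamini-Hochberg over all measured genes). The fit was first run on simulated data with independent noise for true replicates. That run checked the mean estimated size of planted changes and cannot speak for the calls in this design, where each pair holds different conditions. Pairs of single arrays used a 2-fold rule and no test. Members and lists were chosen with earlier results of these data known. Beyond the 8 genes, the text names the ligands, receptors, binding proteins and IGF2 mRNA binding proteins, up to 4 of the largest called genes per list, other called genes where a count is 5 or fewer (chosen after their values were seen), and the 3 nearest profiles of each member with a range of at least 1. Alternatives were cyclic loess, probe set medians, other floors, no trend, other size rules and leaving out each array. Arrays give no counting depth, so their number limits the precision.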

Additional observations from a re-analysis of the deposited data

How the results depend on the processing

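The 7 measured IGF genes kept their direction in every comparison under all alternatives run that measured them. Cyclic loess lowered the median difference of all genes between iPSC and day 6 cultures by 0.13 (0.15 as deposited, 0.03 after), and the 5 called IGF genes were still called. Igfbp4 was then under 2-fold (log2 difference 0.93). Leaving out an array gave differences of 0.85 to 1.38 for Igfbp4 and -1.59 to -0.92 for Igfbp6, so their passing of 2-fold depends on the arrays used. With each array left out in turn (1 residual degree of freedom, the lone array assumed to vary like the other pair), 1 to 2 IGF genes rose and 3 to 4 fell, over all genes 1872 to 3196 rose and 1161 to 2004 fell, and the lowest counts came without the Firefly knockdown array. Igf1 passed with probe set medians (limma adjusted p = 0.0498), no filter, a floor at the lower quartile (0.0333) and no trend (0.0337). It did not pass with the deposited values and the median floor (0.0508) or after cyclic loess (0.0752). With an array left out its difference was -0.90 to -0.56, and without the array of the culture labelled Sumo2 knockdown it was not measured. Igfbpl1, never called, ranged from -0.30 to 0.14 with an array left out and changed sign without the 10 day array.

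A 2-fold rule beside the adjusted p left 1820 genes that rose and 1161 that fell. Between the day 6 cultures, a floor at the upper quartile gave 59 genes higher and 17 lower and a 1.5-fold rule gave 480 and 330, with 1 IGF gene lower (Igfbp6), in place of 111 and 27 with 0 IGF genes. Between the lines the same settings gave 122 and 56, and 757 and 483, in place of 258 and 121. Over all values of single genes under alternatives, 444 kept direction and side of the threshold, 20 lost and 6 gained the call. No paired analysis was possible because the labels carry no replicate numbers. Probe sets under the floor limit what can be said of Igf1 and Igfbp5.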
